A study of Sus scrofa with 67 samples.

Results

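The transcriptome of the oviduct was compared between day 15 and day 12 of the porcine oestrous cycle. The comparison used every oviduct library whose label gives day 15 (4 libraries) or day 12 (4 libraries), 8 of the 66 libraries of the count table. The table also holds the endometrium and the ovary, and all 3 tissues were sampled every 3 days from day 0, the onset of oestrous behaviour, to day 18. The animals were crossbred gilts (Landrace × Yorkshire), and none of the groups received a treatment. No age is given in the labels, while the study's methods give a range in months for gilts of similar age. The oviduct was sampled at its ampulla, the wide segment where eggs are fertilised. Nothing in the labels ties libraries to single gilts. The study's methods describe the 3 tissues as collected from the gilts of each day, so libraries of different tissues can share an animal. No fit had a term for the animal, and tests between tissues treated all libraries as independent. A p-value here measures only the spread between libraries of a group, taken over every library in the fit, those of the other days included.

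In the pig, days 12 and 15 lie around the end of the luteal phase. Without a pregnancy, prostaglandin from the uterus ends the life of the corpora lutea, progesterone falls, and oestrogen from the next wave of follicles takes over. The lining of the oviduct holds ciliated cells, which move gametes and embryos, and secretory cells, which make proteins such as oviductin, over a stroma and a layer of smooth muscle. Both oestrogen and progesterone act on these cells through nuclear receptors. Progesterone is known to lower its own receptor, PGR, while oestrogen raises it.

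The 8 libraries held between 8962103 and 11223677 counts each, and 15665 of 25322 genes passed the filter on low counts. Levels are given as CPM, counts scaled to a common library total and normalised by TMM, which compare libraries but not genes of different length. The tissue was checked against its own markers. Genes at least 8 times higher in the oviduct than in each other tissue on the other days (129 genes) took 1.59 to 4.35% of the counts of each of the 8 libraries. The matching lists of the ovary (239 genes) and the endometrium (115 genes) took 0.296 to 0.629% and 0.0476 to 0.0636%. Day 15 library 3 held the highest share of the ovary list.

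One day 15 library stood apart from the other 3 before any gene was tested. To place the libraries along the cycle, 1589 genes that were higher on day 18 than on day 9 in the oviduct (10.1% of the genes tested), and 911 that were lower (5.82%), were averaged in each library, with the mean of day 9 set at 0 and that of day 18 at 1. The contrast that chose these genes compared only day 18 with day 9. The day 12 and day 15 libraries were part of the same fit and entered its filter, scaling and estimate of spread. On the genes that rise towards day 18, the day 12 libraries 1 to 4 stood at 0.133, 0.054, 0.072 and 0.048. The day 15 libraries 1 to 4 stood at 0.581, 0.105, 0.391 and 0.791. Day 15 library 2 thus lay within the range of day 12, and the others lay apart from it and from each other. The genes that decline towards day 18 gave the same picture, with day 12 at 0.264, 0.132, 0.109 and 0.13 and day 15 at 0.629, 0.157, 0.474 and 0.773. Over the expressed genes, day 15 library 2 and day 12 library 4 were each other's nearest library. The mean correlation of day 15 library 2 with the 4 day 12 libraries was 0.977, against 0.962, 0.947 and 0.946 for day 15 libraries 1, 3 and 4 (Pearson's r across genes, a description, since genes of a library are not independent).

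**Figure D1:**
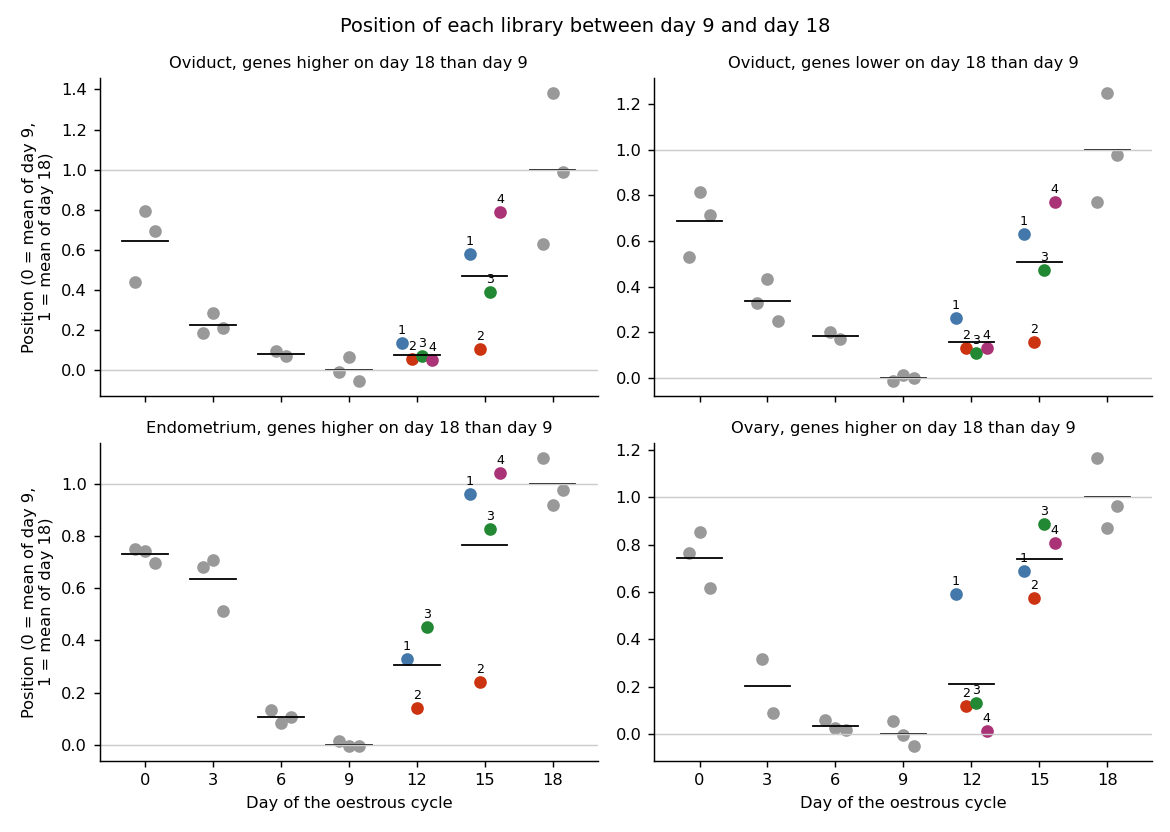
Position of each library (points) between the mean of day 9 (0) and the mean of day 18 (1), by day of the oestrous cycle, with a line at the mean of each day. The panels show oviduct genes higher and lower on day 18 than on day 9, and the genes higher on day 18 in the endometrium and in the ovary. The numbers of the day 12 and day 15 columns are written beside their points. In the oviduct, day 15 library 2 sits at 0.105 and 0.157, beside day 12, and the other day 15 libraries sit between 0.391 and 0.791.

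The library with the number 2 was also the lowest of its day in the other tissues. In the endometrium, day 15 library 2 stood at 0.239 on the rising genes of that tissue, where the other day 15 libraries stood between 0.827 and 1.045. In the ovary it stood at 0.575, where the others stood between 0.69 and 0.888. Whether these libraries share an animal is not stated, and why library 2 stood apart was not tested. Because of this library, the counts of genes called are given with it and without it for each gene list, and the values without it are given for part of the single genes. Leaving out the library nearest to day 12 widens the differences by construction, so the values without it describe 3 libraries and are no independent evidence.

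With all 8 libraries, 2 of 15665 genes differed between day 15 and day 12 at an adjusted p under 0.05 in edgeR's quasi-likelihood test (0.0128% of the genes tested), KIF3B higher and SCIN lower (0.00638% in each direction). At an unadjusted p under 0.05, 1452 genes were higher (9.27%) and 762 were lower (4.86%), and the median log2 difference of all genes was 0.02. Every day 15 library lay above every day 12 library for 476 genes (3.04%) and below for 505 (3.22%). Without day 15 library 2, the same test called 851 genes (5.45%), 566 higher (3.62%) and 285 lower (1.82%). Leaving out any other single library left between 1 and 3 genes. DESeq2's Wald test on all 8 libraries called 209 genes, 168 higher and 41 lower, and 194 of these were among the 851.

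**Figure D2:**
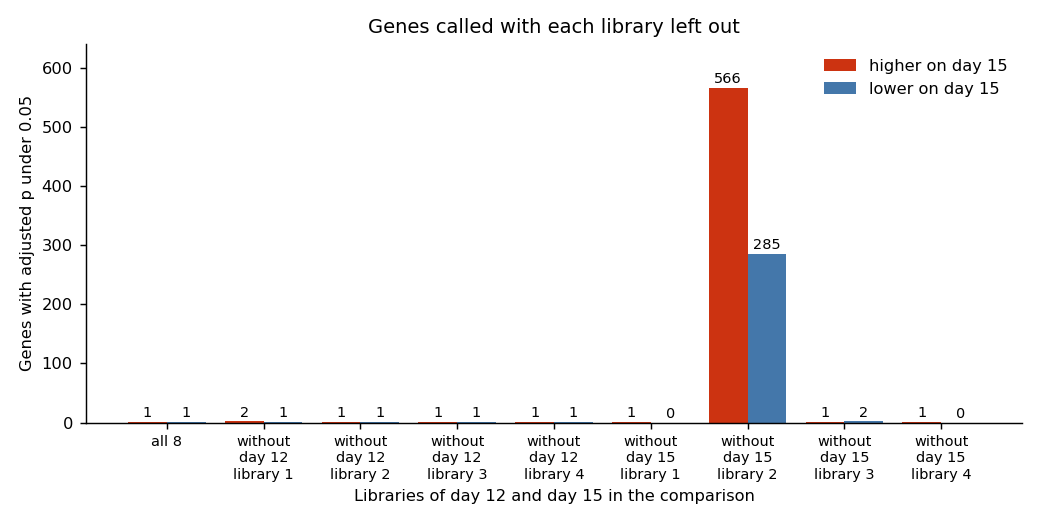
Number of genes with an adjusted p under 0.05 in edgeR's quasi-likelihood test (y axis), higher (red) or lower (blue) on day 15, with all 8 libraries and with each library left out in turn (x axis). The count is 566 higher and 285 lower without day 15 library 2 and at most 2 in each direction otherwise.

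KIF3B (ENSSSCG00000007247), a motor subunit of kinesin-2 that carries cargo into cilia, was higher in all 4 day 15 libraries. Its levels in day 12 libraries 1 to 4 were 121, 159.6, 159 and 188 CPM. In day 15 libraries 1 to 4 they were 428, 456, 314 and 403 CPM. The groups did not overlap, and library 2 was the highest of day 15. KIF3B rose 2.56-fold (log2 1.35, SE 0.17, n = 4 and 4, adjusted p = 0.0023, edgeR's quasi-likelihood test), and by a log2 of 1.29 (SE 0.17, adjusted p = 0.0032) without library 2. Its adjusted p lay between 0.0010 and 0.0193 when any 1 of the 8 libraries was left out, and the call was lost when only the libraries of days 12 and 15 were fitted (adjusted p = 0.2065). On the other days the oviduct held between 81.8 and 178 CPM. Day 18 lay below day 15 by a log2 of 1.73 (SE 0.19), a comparison that shares the day 15 libraries.

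KIF3B also differed outside the oviduct. In the endometrium it was 175, 211 and 222 CPM in the day 12 libraries and 293, 365, 338 and 391 CPM in the day 15 libraries, a log2 difference of 0.77 (SE 0.16, adjusted p = 0.0257, edgeR's quasi-likelihood test). In the ovary it was 44.3, 67.8, 67.9 and 70.5 CPM on day 12 and 165, 93.3, 123 and 104 CPM on day 15, a log2 difference of 0.96 (SE 0.20, adjusted p = 0.064). In neither tissue did the groups overlap. The test of the difference between tissues gave a log2 of 0.55 (SE 0.25, adjusted p = 0.275) against the endometrium and of 0.35 (SE 0.24, adjusted p = 0.468) against the ovary. Of 14376 genes tested in all 3 tissues, KIF3B was the 1 gene whose day 15 libraries lay above every library of days 9, 12 and 18 in each tissue. No gene lay below in the same way. Whether the day 15 libraries shared a preparation or a sequencing run is not given in the sources used here, so the day and such a batch cannot be told apart.

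SCIN (ENSSSCG00000015353), scinderin, a calcium-dependent protein that severs actin filaments and takes part in secretion, was lower in all 4 day 15 libraries. Its levels were 135, 82.2, 100.1 and 123 CPM in day 12 libraries 1 to 4 and 37.6, 61.9, 28.7 and 42.1 CPM in day 15 libraries 1 to 4. Library 2 was the highest of day 15 and still below all of day 12. SCIN fell 2.59-fold (log2 -1.37, SE 0.21, adjusted p = 0.0185, edgeR's quasi-likelihood test), and by a log2 of -1.61 (SE 0.19, adjusted p = 0.0012) without library 2. The call was lost without day 15 library 1 (adjusted p = 0.140), day 15 library 4 (0.120), day 12 library 4 (0.0573) or day 12 library 1 (0.0557). It was also lost with the column number as a block (0.070) and when only the libraries of days 12 and 15 were fitted (0.3375). Day 18 held 84.9 to 91.7 CPM, above all of day 15.

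Few genes had this course, with day 15 apart from both its neighbours. Of the 15665 genes tested in the oviduct, 4 lay above every library of days 9, 12 and 18 in all 4 day 15 libraries. These were KIF3B, OAS2, SARS2 and 1 gene without a symbol (ENSSSCG00000008084, at most 1.16 CPM). They were singled out after their values were seen. SARS2, the mitochondrial seryl-tRNA synthetase, was 15.8 to 20.8 CPM on day 12 and 21.6 to 27.0 CPM on day 15, with an adjusted p of 0.290. In the other direction 6 of the 15665 genes, SCIN among them, lay below. How many genes would take either course by chance was not tested.

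**Figure D3:**
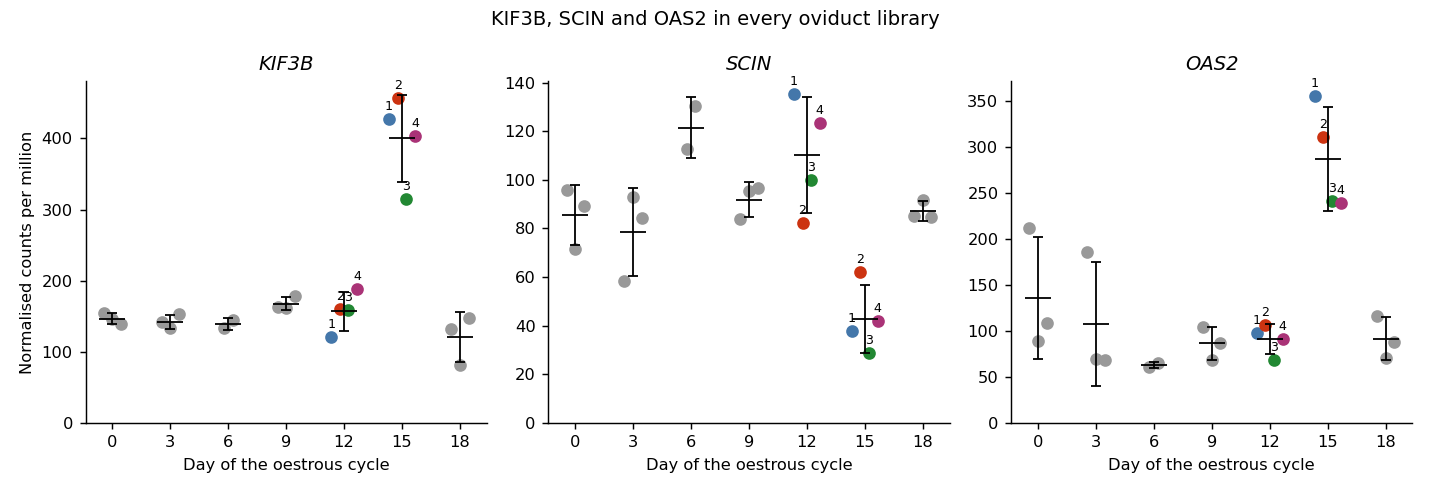
CPM (y axis, from 0) of KIF3B, SCIN and OAS2 in every oviduct library (points) by day of the oestrous cycle, with the mean and SD of each day. Day 12 and day 15 libraries carry their numbers. KIF3B and OAS2 lie higher, and SCIN lower, in all 4 day 15 libraries than on days 9, 12 and 18.

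OAS2, an interferon-induced enzyme whose oligoadenylates start RNA decay in infected cells, had the third smallest p among genes with a symbol. Its levels were 97.5, 107, 68.2 and 91.6 CPM on day 12 and 356, 311, 241 and 239 CPM on day 15. As with KIF3B, library 2 was high here. The log2 difference was 1.66 (SE 0.31), with an adjusted p of 0.172 in edgeR's quasi-likelihood test and 0.0145 without library 2. The other interferon response genes stood nearer to day 12. Of 20 members tested, 7 were higher and 0 lower at an unadjusted p under 0.05, against 9.27% and 4.86% of all genes, with a median log2 difference of 0.44. The count was 4 without day 12 library 3 or day 15 library 1, and the median was then 0.27 and 0.28. None passed the adjusted threshold in edgeR with all libraries, and without library 2 OAS2 was the 1 member called. MX1, an antiviral GTPase, was 121, 104, 68.0 and 93.6 CPM on day 12 and 250.4, 154.5, 114 and 121 CPM on day 15 (adjusted p = 0.215). Unlike most lists, the interferon list was led by libraries 1 and 2. They held 15 and 13 of the 20 members above all of day 12, and libraries 3 and 4 held 5 and 6.

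The remaining genes are described by function, with lists chosen with earlier results of these data known. None of the 29 lists held a gene with an adjusted p under 0.05 in edgeR's quasi-likelihood test when all 8 libraries were used. Each list is therefore given by its counts at an unadjusted p under 0.05 in edgeR's quasi-likelihood test, to be read against 9.27% higher and 4.86% lower over all genes, and by its median log2 difference, against 0.02. Genes beyond the most abundant 2 members of a list were chosen after their values were seen.

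Genes of cholesterol synthesis and its control were higher in 3 of the 4 day 15 libraries. Of 21 tested, 17 were higher and 1 was lower (median log2 difference 0.81). SQLE, squalene epoxidase, a rate-limiting enzyme of the pathway, was 15.1, 13.3, 10.6 and 12.9 CPM on day 12 and 50.1, 12.8, 70.2 and 81.6 CPM on day 15. INSIG1, a sterol sensor that is itself induced when sterols are low, was 25.2, 16.5, 18.1 and 14.4 CPM on day 12 and 52.1, 24.3, 67.8 and 100.5 CPM on day 15. In both genes library 2 lay inside the range of day 12 and the other day 15 libraries lay above it.

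The same libraries were high for the pathway's regulator and its early enzymes. SREBF2, the transcription factor that turns the pathway on, was 82.2 to 98.7 CPM on day 12 and 179, 75.3, 192 and 215 CPM on day 15. HMGCS1, the first committed enzyme, was 65.0 to 104 CPM on day 12 and 158, 82.6, 190.6 and 408 CPM on day 15. FDPS and ACAT2, which act before squalene, lay above day 12 in all 4 libraries, FDPS at 141, 45.4, 101 and 189 CPM against 30.4 to 44.8 CPM, and ACAT2 at 46.3, 19.0, 21.3 and 63.6 CPM against 14.4 to 18.4 CPM. The member that was lower was TM7SF2, a sterol reductase, at 165 to 247 CPM on day 12 and 154, 215, 115 and 107 CPM on day 15.

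With all libraries the log2 difference was 2.05 (SE 0.42, adjusted p = 0.187) for SQLE and 1.72 (SE 0.37, adjusted p = 0.187) for INSIG1, in edgeR's quasi-likelihood test. Without library 2 these were 2.37 (SE 0.32, adjusted p = 0.0032) and 1.98 (SE 0.33, adjusted p = 0.0067), and 14 of the 21 members were called higher, where 3.62% of all genes were. In libraries 1, 3 and 4, 17, 19 and 20 of the 21 members lay above all of day 12, against 27.5, 30.9 and 30.9% of all genes. In library 2 the count was 5. Leaving out any 1 of the 8 libraries left between 15 and 18 members higher at an unadjusted p under 0.05. Among other lipid genes, SCD, which makes monounsaturated fatty acids, was 128 to 138 CPM on day 12 and 292, 145, 216 and 424 CPM on day 15. PDK4, which shuts pyruvate out of the citrate cycle when fatty acids are burned, went the other way, at 369 to 692 CPM on day 12 and 286, 425, 155 and 114 CPM on day 15. In the list of glucose and lipid metabolism, 5 of 16 members were higher and 3 lower (median 0.01).

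Compared with the ovary over the same days, 14 of the 21 cholesterol genes had a larger value in the oviduct and 0 a smaller one at an adjusted p under 0.05 in edgeR's quasi-likelihood test of the difference of the changes, where 2.3% of all genes had a larger value. The difference was 3.74 in log2 for SQLE (SE 0.95, adjusted p = 0.0161), and FDPS, HMGCS1, INSIG1, ACAT2 and SREBF2 were among the 14, TM7SF2 was not. HMGCS1 kept its call in 1 of the 8 fits that left out an oviduct library, and FDPS, INSIG1 and ACAT2 lost theirs without day 15 library 4. In the ovary SQLE differed by a log2 of -1.77 (SE 0.83) between day 15 and day 12. Day 12 library 1 of the ovary stood at 0.592 on the rising genes of that tissue, beside day 15, and its part in these differences was not tested. Against the endometrium 0 of the 21 passed in edgeR (3 higher and 0 lower at an unadjusted p under 0.05), and SQLE gave a log2 of 1.51 (SE 0.96, adjusted p = 0.497).

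**Figure D4:**
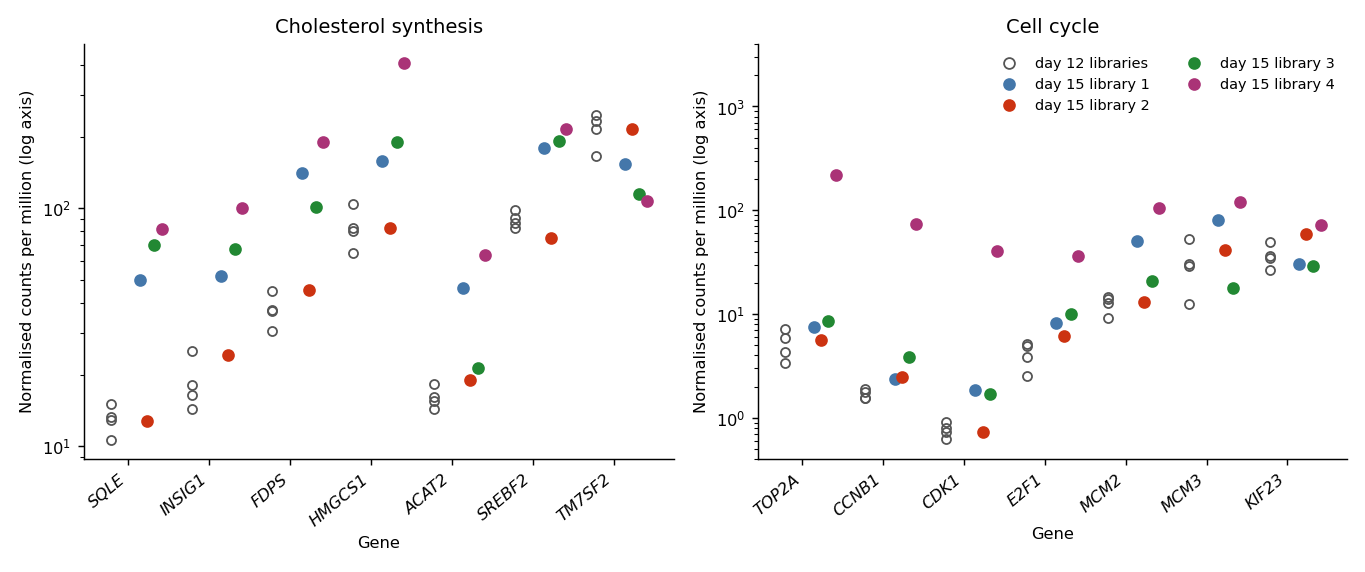
CPM on a log axis of 7 cholesterol genes (left) and 7 cell cycle genes (right), with day 12 libraries as open circles and day 15 libraries coloured by number. For SQLE and INSIG1, day 15 libraries 1, 3 and 4 lie above all of day 12 and library 2 lies among them. For TOP2A, CCNB1 and CDK1, library 4 alone lies far above the rest.

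Steroid receptors and their targets went both ways. PGR, the progesterone receptor, was 12.4, 14.1, 14.3 and 14.9 CPM on day 12 and 64.4, 16.3, 46.2 and 100.5 CPM on day 15. Library 2 was just above day 12 and the others were well above it. The log2 difference was 2.03 (SE 0.50, adjusted p = 0.187, edgeR's quasi-likelihood test), and 2.34 (SE 0.45, adjusted p = 0.0117) without library 2. Over the cycle PGR stood at 95.5 to 121 CPM on day 0, at 11.2 to 17.3 CPM on day 9 and at 57.5 to 181 CPM on day 18, so 3 of the day 15 libraries lay between the levels of day 9 and the highest of day 18. ESR1, the oestrogen receptor and the most abundant member of the list, was 401 to 619 CPM on day 12 and 437 to 572 CPM on day 15 (log2 -0.03, SE 0.28). PGRMC1, a membrane protein linked to progesterone signalling, was 372 to 412 CPM on day 12 and 282, 389.6, 329 and 202 CPM on day 15.

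The members of that list with lower values included FKBP5, ZBTB16 and CITED1. FKBP5, a chaperone partner of steroid receptors, was 96.5, 124, 104 and 100.2 CPM on day 12 and 32.0, 86.6, 30.0 and 38.7 CPM on day 15. The groups did not overlap, and the log2 difference was -1.18 (SE 0.36, adjusted p = 0.2105, edgeR's quasi-likelihood test), or -1.66 (SE 0.33, adjusted p = 0.0130) without library 2. ZBTB16, a transcription factor, was 30.9 to 49.4 CPM on day 12 and 13.4 to 27.6 CPM on day 15, again without overlap (adjusted p = 0.268). CITED1, a transcriptional cofactor, was 3.999, 30.8, 15.3 and 12.1 CPM on day 12 and 1.498, 6.27, 6.16 and 2.67 CPM on day 15. Of the 27 members tested, 3 were higher and 4 lower (median log2 difference -0.15), and without day 15 library 4 there were 2 lower. Without library 2, 2 members were called higher and 1 lower. IGFBP4, which binds insulin-like growth factors and sits in this list and in that of the IGF system, was 50.7 to 105.5 CPM on day 12 and 303, 53.0, 243 and 188 CPM on day 15. Without library 2 it was called (log2 1.78, SE 0.29, adjusted p = 0.0061). The IGF system as a whole had 2 of 14 members higher and 1 lower, and its most abundant member beside IGFBP4, IGFBP7, differed by a log2 of 0.40 (SE 0.31). In steroid metabolism, 3 of 11 were higher and 0 lower, which became 0 without day 12 library 3 and 1 without day 15 library 3 or 4. HSD11B1, which makes active glucocorticoid, differed by a log2 of -0.27 (SE 0.29), and CYP11A1, which starts steroid synthesis, by -0.02 (SE 0.56).

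Lists drawn from contrasts of other oviduct days, within the same fit, were also read between day 12 and day 15. The genes that differ between day 18 and day 9 are those that placed the libraries above, so they give no second line of evidence. Counts are to be read against 9.27% higher and 4.86% lower over all genes. Of the 1589 genes higher on day 18 than on day 9, 614 were higher on day 15 than on day 12 at an unadjusted p under 0.05 and 3 were lower (median log2 difference 0.38). Of the 911 genes lower on day 18, 3 were higher and 267 lower (median -0.32). Genes that differ between day 0 and day 9, lists that share the day 9 libraries, went the other way. Of the 510 genes higher on day 9 than on day 0 (3.26% of all), 7 were higher and 135 lower on day 15, and of the 634 genes lower on day 9 (4.05%), 188 were higher and 5 lower. The mean of the genes rising towards day 18, set against day 12, was 0.519, 0.029, 0.323 and 0.735 in log2 in day 15 libraries 1 to 4. These are the positions given above on another scale.

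The cell cycle list had the largest median difference of all lists, 1.93 in log2, and it rested on day 15 library 4. Of 29 members tested, 24 were higher and 0 lower. TOP2A, the topoisomerase of dividing cells, was 7.18, 3.34, 4.27 and 5.84 CPM on day 12 and 7.49, 5.63, 8.57 and 221 CPM on day 15. CCNB1, a cyclin of mitosis, was 1.55 to 1.91 CPM on day 12 and 2.38, 2.49, 3.84 and 72.9 CPM on day 15. CDK1, its kinase partner, was 0.627 to 0.913 CPM on day 12 and 1.85, 0.738, 1.70 and 40.7 CPM on day 15. Library 4 lay more than 10 times above each other library of either day for these genes.

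For E2F1 and MCM2, other day 15 libraries also lay above day 12. E2F1, a transcription factor of entry into S phase, was 2.51 to 5.18 CPM on day 12 and 8.20, 6.09, 10.1 and 36.0 CPM on day 15, without overlap. MCM2, a subunit of the replicative helicase, was 9.13 to 14.5 CPM on day 12 and 50.8, 13.2, 20.9 and 104 CPM on day 15. MCM3 and KIF23, the most abundant members, differed by a log2 of 1.05 (SE 0.47) and 0.37 (SE 0.29). Without day 15 library 4 the list had 3 of 29 members higher at an unadjusted p under 0.05 and a median log2 difference of 0.48. With library 4 kept and library 2 left out, 11 members were called higher. E2F1 then had a log2 difference of 2.12 (SE 0.40, adjusted p = 0.0113, edgeR's quasi-likelihood test). CCNO, a cyclin needed to make the many centrioles of ciliated cells, had the same course as the mitotic genes, at 1.36 to 4.08 CPM on day 12 and 3.08, 4.89, 1.88 and 75.8 CPM on day 15.

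The other markers of multiciliated cells did not share it. Of 30 tested, CCNO was the 1 higher at an unadjusted p under 0.05 and 0 were lower (median log2 difference -0.15). FOXJ1, the master transcription factor of motile cilia, was 852 to 1395 CPM on day 12 and 1238, 1735, 1113 and 1370 CPM on day 15, and CDHR3, a cadherin of ciliated cells, differed by a log2 of -0.30 (SE 0.29). Day 15 library 2 held 14 of the 30 above all of day 12 and library 3 held 16 of the 30 below. Without library 2, 6 members were lower at an unadjusted p under 0.05 and none was called in edgeR.

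Secretory genes varied widely between libraries of the same day. OVGP1, oviductin, ranged from 3620 to 27190 CPM on day 12 and from 4705 to 29040 CPM on day 15, with library 2 the highest of day 15 and a log2 difference of -0.11 (SE 0.87). CLU, clusterin, a secreted chaperone, ranged from 5501 to 7049 CPM on day 12 and from 4889 to 15040 CPM on day 15. KRT18, a keratin of simple epithelia, was 81.6, 109.9, 109 and 94.6 CPM on day 12 and 375, 132, 136 and 261 CPM on day 15, with no overlap. LTF, lactoferrin, an iron-binding antimicrobial protein, was 639, 537, 1041 and 480.1 CPM on day 12 and 321, 380.2, 125 and 314 CPM on day 15, with no overlap either. Their adjusted p was 0.187 and 0.229 in edgeR's quasi-likelihood test. Without library 2 KRT18 was called (log2 1.38, SE 0.30, adjusted p = 0.0173) and LTF was not (0.0811). Of 14 members of the list, 3 were higher and 2 lower, and 1 was higher without day 12 library 1 or 3 or day 15 library 1 or 4.

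Smooth muscle and matrix genes differed strongly between single libraries of both days. Of 15 smooth muscle markers, 10 were higher and 0 lower (median log2 difference 1.28). DES, desmin, was 2847, 483, 1029 and 906 CPM on day 12 and 4767, 372, 10500 and 3041 CPM on day 15. ACTA2, smooth muscle actin, was 1618, 368, 885 and 478 CPM on day 12 and 3133, 273, 8090 and 1612 CPM on day 15. ACTG2, the enteric form of actin, was 708, 121, 309 and 201 CPM on day 12 and 2512, 87.3, 3419 and 1361 CPM on day 15. Library 2 was below all of day 12 for these 3 genes, library 3 the highest, and day 12 library 1 above the rest of its day. All 15 markers lay above day 12 in library 3 and 14 of 15 lay below it in library 2. Without day 15 library 3, 1 of the 15 was higher at an unadjusted p under 0.05 and the median log2 difference was 0.44. The count was 5 without day 12 library 2 and 6 without day 12 library 4. Without library 2, 8 of the 15 were called higher. In bulk tissue, fewer cells of a type and less RNA per cell cannot be told apart.

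Of 27 collagen and matrix genes, 14 were higher and 1 lower (median log2 difference 0.86). COL3A1, a fibrillar collagen of stroma, was 905.5, 275, 405 and 255 CPM on day 12 and 1822, 214.5, 1640.0 and 1248 CPM on day 15. COL4A2, of basement membranes, was 528, 140.0, 254 and 157 CPM on day 12 and 749, 132, 1119 and 569 CPM on day 15. Without library 2 their log2 differences were 1.77 (SE 0.48) and 1.59 (SE 0.43), with an adjusted p of 0.040 for each in edgeR's quasi-likelihood test. The number of members higher fell from 14 to 6 without day 15 library 3, to 8 without day 15 library 1, to 5 without day 12 library 2 or 4, to 9 without day 12 library 3, and stood at 21 without day 15 library 2. The lower member was P4HA1, an enzyme that hydroxylates collagen, at 209, 249, 269.9 and 189.5 CPM on day 12 and 127, 184, 119.9 and 119 CPM on day 15, without overlap. Among fibroblast markers, 3 of 11 were higher and 1 lower, with CFD, a complement protease, at 806 to 1351 CPM on day 12 and 427 to 880.0 CPM on day 15, and FBLN1, a matrix protein, at a log2 difference of 0.17 (SE 0.32). The count was 5 without day 12 library 1 or day 15 library 2. Endothelial markers had 3 of 13 higher and 0 lower. KDR, a receptor for VEGF, differed by a log2 of -0.06 (SE 0.24), and PECAM1, a junction protein, by 0.54 (SE 0.36).

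Enzymes that cut the matrix were among the larger differences. ADAMTS4, an aggrecan-cleaving protease, was at most 1.05 CPM on day 12 and 20.5, 1.11, 10.98 and 3.53 CPM on day 15, just without overlap (adjusted p = 0.187, edgeR's quasi-likelihood test, and 0.0118 without library 2). ADAMTS1, a related protease, was 14.1 to 29.1 CPM on day 12 and 97.1, 23.2, 61.6 and 49.2 CPM on day 15 (adjusted p = 0.0131 without library 2). MMP7, matrilysin, was 10.54, 8.88, 6.45 and 5.20 CPM on day 12 and 98.9, 31.0, 25.2 and 43.5 CPM on day 15. Its groups did not overlap, and library 2 lay on the side of day 15. Its log2 difference was 2.67 (SE 0.78, adjusted p = 0.2085, edgeR's quasi-likelihood test), or 2.84 (SE 0.82, adjusted p = 0.0510) without library 2. ADAMTS5 went the other way, at 21.2, 21.8, 21.9 and 10.6 CPM on day 12 and 10.6, 7.01, 5.89 and 7.16 CPM on day 15. For ADAMTS5 the change differed from that of the endometrium by a log2 of -3.57. TIMP1, an inhibitor of these enzymes, was 164.5 to 345 CPM on day 12 and 742, 262, 639 and 760.0 CPM on day 15. PLAT, a plasminogen activator, differed by a log2 of 0.25 (SE 0.31). In all, 8 of 19 members were higher and 1 lower (median log2 difference 0.73). The count was 5 without day 12 library 4, and the median was 0.40 without day 15 library 3. Without library 2, 4 members were called higher.

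Prostaglandin genes had 7 of 15 members higher and 0 lower (median log2 difference 0.57). PTGS2, the inducible cyclooxygenase, was 1.82, 0.836, 0.595 and 0.913 CPM on day 12 and 10.6, 1.199, 6.34 and 3.72 CPM on day 15. PTGER3, a receptor for prostaglandin E2, was 4.54, 0, 0.298 and 1.09 CPM on day 12 and 7.93, 0.277, 37.8 and 7.82 CPM on day 15. Both lay in or near the range of day 12 in library 2, and without it both were called (adjusted p = 0.0168 and 0.0245, edgeR's quasi-likelihood test) with 1 other member. PTGES3 and PTGIS, the most abundant members, differed by a log2 of 0.07 (SE 0.22) and 0.47 (SE 0.40). Without day 15 library 3, 3 members were higher. Without day 12 library 2 or 3 there were 4.

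Immediate early genes, which respond within minutes to growth factors and to handling of tissue, were led by day 15 library 1. Of 16 tested, 9 were higher and 0 lower (median log2 difference 1.53). FOS was 158, 15.2, 14.5 and 21.2 CPM on day 12 and 659, 24.1, 185 and 73.7 CPM on day 15. EGR1 was 121, 32.1, 23.2 and 53.0 CPM on day 12 and 980.5, 34.9, 132 and 21.1 CPM on day 15. CCN2, a matrix-associated growth regulator, was 120.0, 40.6, 76.9 and 91.4 CPM on day 12 and 1077, 149, 879.6 and 87.4 CPM on day 15. DUSP1, a phosphatase that ends such signals, differed by a log2 of 0.64 (SE 0.44). All 16 members lay above day 12 in library 1, 12 in library 3, 4 in library 2 and 3 in library 4. Without library 1, 3 members were higher at an unadjusted p under 0.05 and the median log2 difference was 0.43.

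Immune cell markers are given by cell type. None of the 14 markers of T and NK cells and none of the 4 of B and plasma cells had an unadjusted p under 0.05 in edgeR's quasi-likelihood test. CCL5, a T cell chemokine, was at most 18.6 CPM, CD247, a chain of the T cell receptor, differed by a log2 of 0.05 (SE 0.34), and PRDM1 and MZB1, of plasma cells, were below 5 CPM in every library. Of 16 macrophage markers 2 were higher. C1QA, a complement subunit made by macrophages, was 39.8, 16.0, 13.5 and 16.7 CPM on day 12 and 51.3, 38.3, 35.1 and 19.1 CPM on day 15, and LYZ, lysozyme, differed by a log2 of -0.16 (SE 0.38). MHC class II genes had 1 of 8 higher and a positive log2 difference in all 8, and 6 were higher without day 12 library 1, 4 without day 15 library 4 and 0 without day 12 library 3 or 4 or day 15 library 1, with HLA-DRA at a log2 difference of 0.51 (SE 0.29) and SLA-DQB1 at 0.34 (SE 0.27). In acute inflammation 1 of 9 was higher and 1 lower (median log2 difference 0.53). The higher was CCL2, a chemokine for monocytes, at 2.09, 1.045, 0.7935 and 0.2738 CPM on day 12 and 3.349, 1.107, 9.552 and 4.675 CPM on day 15 (log2 2.14, SE 0.60, adjusted p = 0.204, edgeR's quasi-likelihood test, and 0.0204 without library 2). The lower was PTX3, a pattern-recognition protein that also builds the matrix around the oocyte, at 188, 382, 231 and 167 CPM on day 12 and 37.6, 127, 27.5 and 29.8 CPM on day 15. Its groups did not overlap, and its log2 difference was -2.12 (SE 0.58, adjusted p = 0.187), or -2.93 (SE 0.58, adjusted p = 0.0127) without library 2. NFKBIA, an inhibitor of NF-κB, differed by -0.37 (SE 0.26).

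**Figure D5:**
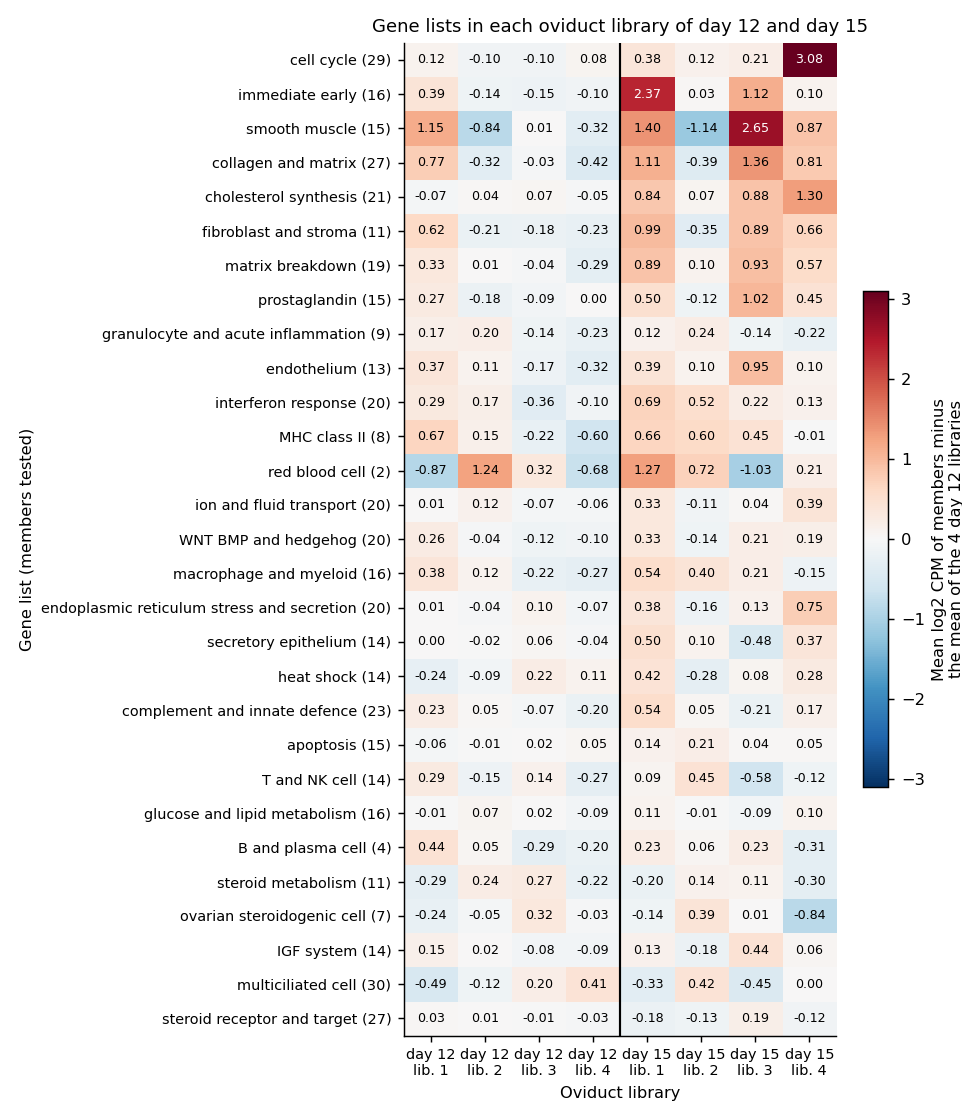
Mean log2 CPM of the members of each gene list (rows, with the number tested) in each oviduct library of day 12 and day 15 (columns), minus the mean of the 4 day 12 libraries. Cholesterol synthesis is high in day 15 libraries 1, 3 and 4 (0.84, 0.88 and 1.30), cell cycle in library 4 (3.08), immediate early genes in libraries 1 and 3 (2.37 and 1.12) and smooth muscle in library 3 (2.65).

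A further 4 lists had members in both directions. Complement and innate defence had 2 of 23 higher and 2 lower, with C3, the central complement protein, at 316 to 742 CPM on day 12 and 2222, 1034, 73.6 and 1472 CPM on day 15. Ion and fluid transport had 4 of 20 higher and 2 lower, and NHERF1, a scaffold of ion channels, differed by a log2 of 0.35 (SE 0.28). Apoptosis had 1 of 15 higher and 1 lower, with CTSB, a lysosomal protease, at 0.07 (SE 0.22) and CFLAR, an inhibitor of caspase-8, at -0.16 (SE 0.15). For WNT, BMP and hedgehog genes 5 of 20 were higher and 3 lower (median log2 difference 0.30, and 0.33 for ion and fluid transport). The 5 became 3 without day 12 library 3, and the 3 lower became 0 without day 15 library 4. In ion and fluid transport the 2 lower became 0 without day 12 library 2 or day 15 library 3. In apoptosis the 1 lower became 0 without day 12 library 1 or 2 or day 15 library 4. SFRP2, a WNT inhibitor of stroma, was 44.6 to 110.3 CPM on day 12 and 436, 25.6, 316 and 531 CPM on day 15 (adjusted p = 0.0206 without library 2, edgeR's quasi-likelihood test), and WNT2B, a ligand, differed by a log2 of 0.02 (SE 0.45).

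In the list of endoplasmic reticulum stress and secretion 3 of 20 were higher and 0 lower, which became 1 without day 15 library 4 and 5 without day 15 library 2. CALR, calreticulin, a chaperone, was 644 to 814 CPM on day 12 and 1284, 648, 982 and 1950.0 CPM on day 15, and HSP90B1 differed by a log2 of 0.31 (SE 0.37). None of the 14 heat shock genes had an unadjusted p under 0.05 in edgeR, HSP90AA1 at -0.13 (SE 0.30) and HSP90AB1 at 0.27 (SE 0.20). Red blood cell genes varied between libraries, with HBB, a globin, at 7.91 to 57.4 CPM on day 12 and 4.64 to 59.5 CPM on day 15 and ALAS2, of haem synthesis, at most 2.64 CPM. None of the 7 markers of ovarian steroidogenic cells and oocytes had an unadjusted p under 0.05, and GDF9, an oocyte factor, differed by -0.28 (SE 0.17).

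Without day 15 library 2, edgeR's quasi-likelihood test called 10 collagen and matrix genes higher and 1 lower, and 3 genes of glucose and lipid metabolism higher and 1 lower, to be read against 3.62% and 1.82% of all genes. It called 3 higher and 0 lower in each of the immediate early, fibroblast and WNT, BMP and hedgehog lists, and 2 higher and 0 lower in those of the IGF system, ion and fluid transport, and endoplasmic reticulum stress and secretion. For endothelial markers, complement and secretory genes it was 1 higher and 0 lower, for apoptosis 1 and 1, and for acute inflammation 1 and 2. No member was called in 9 lists, those of multiciliated cells, steroid metabolism, T and NK cells, B and plasma cells, macrophages, MHC class II, heat shock, red blood cells and ovarian steroidogenic cells.

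A further 3 genes outside the lists are given as examples. They were chosen after their values were seen and do not show how often libraries 1, 3 and 4 lay apart from library 2. S100A6, a calcium-binding protein, was 18.3, 11.3, 11.2 and 15.0 CPM on day 12 and 124.5, 20.8, 53.6 and 72.8 CPM on day 15 (log2 2.28, SE 0.48, adjusted p = 0.187, edgeR's quasi-likelihood test). SLC1A1, a glutamate transporter, was 31.9, 54.0, 46.3 and 59.4 CPM on day 12 and 8.46, 41.0, 6.61 and 10.21 CPM on day 15. OLFM4, an olfactomedin secreted by epithelia, was listed at 0 counts in all 4 day 12 libraries and in day 15 library 2. It reached 13.6, 7.41 and 48.4 CPM in day 15 libraries 1, 3 and 4, and 14.4 to 43.1 CPM on day 0. Without library 2, SLC1A1 had a log2 difference of -2.51 (SE 0.26, adjusted p = 2.3e-04).

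The change in the oviduct was tested against the change in the other tissues over the same days. Libraries of different tissues were treated as independent, although they can come from the same gilt. The difference oviduct minus endometrium passed an adjusted p of 0.05 for 214 of 16934 genes (1.26%), 60 with the larger value in the oviduct (0.354%) and 154 in the endometrium (0.909%), in edgeR's quasi-likelihood test. Oviduct minus ovary passed for 829 (4.9%), 389 (2.3%) and 440 (2.6%). Leaving out 1 oviduct library at a time gave between 55 and 460 genes against the endometrium and between 490 and 1117 against the ovary, with the fewest without day 15 library 4 and the most without day 15 library 2. For comparison, the endometrium alone had 947 genes called between day 15 and day 12 (6.17% of 15341, with 3.9% higher and 2.27% lower) and the ovary 4 (0.0256% of 15638). Of the genes called higher in the endometrium, 580 were tested in the oviduct, where 70 were higher and 29 lower at an unadjusted p under 0.05 (median log2 difference 0.06). Of those called lower there, 341 were tested, and 18 were higher and 30 lower in the oviduct (median -0.10). These counts are to be read against 9.27% higher and 4.86% lower over all genes tested in the oviduct, and the medians against 0.02.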

How the data were processed

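RNA was sequenced from the endometrium, ovary and oviduct of gilts. As the study's methods state, the authors trimmed the reads and mapped them to the pig genome (Sscrofa10.2, Ensembl annotation). The deposited table holds whole-number counts per gene and library, neither normalised nor pooled. FeatureCounts, Cufflinks, Cuffdiff and edgeR are named without a role in the submitters' processing notes, and the strand setting of the counting is not given in the sources used here, so overlapping, antisense and near-identical genes are uncertain. Symbols paired with 11804 of 25322 gene IDs. The series' design text gives 23 pigs, the methods fewer, and neither says which pig gave which of the 4 oviduct libraries on each of the days 12 and 15. Column numbers start at 1 and sample titles at 0, so columns were assigned to groups and not to single samples.

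All 22 oviduct libraries were fitted with day as a factor (edgeR 4.0.16 in R 4.3.3, TMM, filterByExpr, robust quasi-likelihood F-test, Benjamini-Hochberg adjustment over all genes tested). Changes were compared between tissues in a fit of all 66 libraries. On simulated counts of this comparison (15446 genes), 50 of 100 genes changed 2-fold and 98 of 100 changed 4-fold were called, with 6 false calls. The simulation gave every day the same spread and shifted all 4 day 15 libraries alike. The real libraries spread more widely on day 15 than on day 12 (mean SD 0.389 against 0.268), and library 2 stood apart. These shares therefore do not measure how many real changes were found. The depth of 8962103 to 11223677 counts makes 3 counts equal to 0.267 to 0.335 CPM.

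Named were called genes whose groups did not overlap, where no library of the higher day had under 10 counts (up to 12 per direction), and for each list the called members (up to 5) or, with none called, its 2 members with the most counts. The comparison, the 29 lists and these rules were chosen with earlier results of these data known, and 31 genes were added after their values were seen. Items withheld from this text are not reported here, although the counts of their lists include them. Alternatives were DESeq2 1.42.0 (its size factors, and its Wald test), no filter, only the 2 groups, a block of column numbers, and 8 fits that each dropped 1 library. Leave-one-out counts of the lists and leave-one-out values of the tissue differences of named genes were added after seeing the data.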

Additional observations from a re-analysis of the deposited data

Results flagged for a closer look

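In 24 of 234 groups of 4 libraries, 1 library stood beyond the critical value of Dixon's test, where chance gives about 1 in 20 (11.7 of 234). The groups include 31 genes added after their values were seen, some of them for 1 library that stood apart, so the 24 cannot be read against chance. On day 15, library 4 was the far one for TOP2A (221 CPM), CCNB1 (72.9 CPM), CDK1 (40.7 CPM), E2F1 (36.0 CPM), CCNO (75.8 CPM), PLAT (693 CPM), the mean of the cell cycle list (3.08 in log2 above day 12) and, as the lowest library, SLA-DQB1 (36.3 CPM). Library 2 was the far one on day 15 for OVGP1 (29040 CPM), PTX3 (127 CPM), FKBP5 (86.6 CPM), P4HA1 (184 CPM) and SLC1A1 (41.0 CPM). Library 3 was the far one for FBLN1 (1277 CPM) and the mean of the steroid receptor and target list (0.192), and library 1 for EGR1 (980.5 CPM). On day 12, library 1 was the highest for PRDM1 (3.91 CPM), C1QA (39.8 CPM), DUSP1 (208 CPM), FOS (158 CPM) and the means of the fibroblast (0.618) and immediate early (0.391) lists, library 2 was the highest for LYZ (72.3 CPM), and library 4 was the lowest for ADAMTS5 (10.6 CPM).

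For 18 genes of the text, the change from day 12 to day 15 differed between tissues at an adjusted p under 0.05 in edgeR's quasi-likelihood test of the difference itself. The log2 change in the oviduct minus that in the endometrium was 8.16 for CCNO, -2.38 for HSD11B1, -3.18 for CFD and -3.57 for ADAMTS5. Minus that in the ovary it was 3.74 for SQLE, 3.55 for FDPS, 3.27 for HMGCS1, 3.04 for INSIG1, 3.03 for SCD, 2.97 for ACAT2, 1.92 for SREBF2 and 1.84 for IGFBP4. It was -1.32 for P4HA1, -3.61 for PDK4, -4.41 for KRT18, -4.78 for FOXJ1, -5.70 for LYZ and -5.79 for LTF. In the oviduct alone the log2 difference was -0.73 for P4HA1, -1.02 for PDK4 and -1.24 for LTF. It was -0.16 for LYZ, 0.31 for FOXJ1 and 1.19 for KRT18, so FOXJ1 and KRT18 had no fall there. HSD11B1 lost its call without oviduct day 12 library 2, IGFBP4 without day 15 library 1, and CFD, ADAMTS5 and SCD without day 15 library 4. CCNO itself differed by 2.85 in the oviduct and by -5.37 in the endometrium. Its call was lost without day 15 library 4 of the oviduct (difference 5.50, adjusted p = 0.209) and without any day 12 library. The ovary values include day 12 library 1 of the ovary, which stood beside day 15.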

How the results depend on the processing

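The number of genes called depended on 1 library. Leaving out each of the 8 libraries in turn gave between 1 and 851 genes, 1 to 566 higher and 0 to 285 lower, with the highest counts without day 15 library 2. DESeq2's Wald test gave 209 genes, 168 higher and 41 lower. With only the 2 groups in edgeR there were 0, in either direction (1988 at an unadjusted p under 0.05). Fewer libraries then set the spread, and why the calls were lost was not tested. With the column number as a replicate block there were 2 genes, 2 higher and 0 lower. Same-numbered day 12 and day 15 libraries deviated together with correlations of 0.113, 0.210, 0.022 and 0.004, so the numbers were not taken as pairs, and not every library correlated best with its own number. DESeq2's size factors and no filter left 2 genes each.

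For the oviduct minus the endometrium, leave-one-out counts lay between 55 and 460, and for the oviduct minus the ovary between 490 and 1117. With only the day 12 and day 15 libraries of the 2 tissues, edgeR called 0 genes in each comparison (2350 and 1988 at an unadjusted p under 0.05). With a replicate block the counts were 169 and 721.

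Of the 1140 values of the 88 genes named, 1042 kept their sign and side of the threshold. A further 60 passed it under an alternative, 36 of them without day 15 library 2 and 23 in DESeq2, and 7 lost it (KIF3B with only the 2 groups, and SCIN there, with the block and without day 12 library 1 or 4 or day 15 library 1 or 4). In 16 genes the sign turned, in 31 values in all, none with an adjusted p under 0.05, and the cause was not tested. Leaving out 1 library at a time, their log2 differences lay at -1.064 to 0.56 for OVGP1, -0.133 to 0.066 for ESR1, -0.441 to 0.102 for HSD11B1, -0.562 to 0.415 for CYP11A1, -0.034 to 0.148 for PTGES3 and -0.143 to 0.789 for PTGIS. They lay at -0.16 to 0.171 for CTSB, -0.013 to 0.382 for PLAT, -0.064 to 0.522 for FBLN1, -0.164 to 0.114 for KDR and -0.406 to 0.308 for CD247. For the last 5 they lay at -0.492 to 0.171 for LYZ, -0.007 to 0.925 for DUSP1, -0.289 to 0.349 for WNT2B, -0.159 to 1.064 for HBB and -0.082 to 1.312 for ALAS2. With the block, WNT2B was at -0.068.

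At this depth and with 4 libraries per day, 50 of 100 simulated 2-fold changes were not called. The simulation gave every day the same spread, which the real libraries did not have.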

Other observations

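The spread between libraries of the same day was wider on day 15 than on day 12. The mean SD of log2 CPM over genes was 0.268 on day 12, 0.389 on day 15 and 0.459 on day 18 (n = 4, 4 and 3 libraries), against 0.261 on day 9. On the first principal component of the 22 oviduct libraries, which held 29.9% of the variance, day 12 libraries 1 to 4 lay at 20.03, 43.6, 38.2 and 38.0. Day 15 libraries 1 to 4 lay at -2.61, 40.4, -12.6 and -20.9, and day 18 at -8.72, -75.2 and -48.9.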
